A study of Mus musculus with 6 samples.

Results

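The EGR, NR4A, Arc and other early genes are 10 genes (Arc, Egr1, Egr2, Egr3, Nr4a1, Nr4a2, Nr4a3, Ier2, Ier3 and Csrnp1), of 18193 genes with a probe set of a single gene symbol on the array. Their probe sets were found by symbol, 20 in all, and the one that stands for each gene was selected on measured values, as the brightest by mean log2 signal over all arrays. All 10 passed the filter on dim signals and were among the 12917 genes tested. Arc, Nr4a1 and Csrnp1 were already known to stand among the largest increases of heat-shocked over LPS-treated cells, so their values in both comparisons with heat-shocked cells are given as a description with no test, and counts of calls there are over the other 7.

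Expression was measured on 1-colour Affymetrix arrays in primary embryonic fibroblasts, which are connective tissue cells, of ICR mice at day 15.5 of development. Each of 2 embryos gave 1 culture, and cells of both received 1 h of heat shock (42 °C) followed by 4 h with 1 μg/ml E. coli lipopolysaccharide (LPS) in the HS+LPS group, 4 h of LPS at that dose with no heat in the LPS group, or neither, at 37 °C, in the Control group. This made 6 arrays, 2 per group, 1 from each culture, and the medium of all of them held 10% fetal bovine serum. Cells given heat but no LPS were not analysed here, so an effect of heat alone and one that needs LPS cannot be told apart. In RNA from whole cultures, fewer cells of a type and less RNA per cell cannot be told apart either.

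Immediate early genes are switched on within minutes of a stimulus from transcription factors already present in the cell, such as serum response factor, which binds CArG boxes, and CREB, which binds cAMP response elements. Their mRNAs are usually short-lived, and many of their products are transcription factors that set off a later round of gene expression. In fibroblasts the classical trigger is serum. Egr1, Egr2 and Egr3 encode zinc finger factors. Nr4a1, Nr4a2 and Nr4a3 encode orphan nuclear receptors. Arc encodes a cytoskeleton-associated protein best known from the synapses of activated neurons.

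The promoters are shown because they were searched for sequence motifs through which early genes are known to be switched on. RefSeq promoter windows, each with 250 bases before a transcription start site and 50 after it (build GRCm38.p6), were matched for 6 members, with 13 windows in all. No window of Arc, Egr1, Egr3 or Ier2 is included here. The 250 bases before the start are printed for 5 start sites, 5′ to 3′ along the gene. Capitals mark matches, on either strand, to the cAMP response element half-site (TGACG, or CGTCA on the other strand), the CArG box, the EGR site (GCGTGGGCG or GCGGGGGCG), the TATA box (TATAAA) and the kappaB site. The windows lie at chr15:101266596-101266845 on the plus strand for Nr4a1, chr2:57124004-57124253 on the minus strand for Nr4a2, chr4:48045055-48045304 on the plus strand for Nr4a3, chr10:67537619-67537868 on the plus strand for Egr2 (its start site 3), and chr17:35821463-35821712 on the plus strand for Ier3.
Nr4a1: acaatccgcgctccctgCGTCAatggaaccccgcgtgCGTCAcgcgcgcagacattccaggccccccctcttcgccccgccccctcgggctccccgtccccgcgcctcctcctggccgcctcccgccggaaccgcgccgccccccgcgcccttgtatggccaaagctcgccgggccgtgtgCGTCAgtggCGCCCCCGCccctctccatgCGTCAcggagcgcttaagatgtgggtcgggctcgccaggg
Nr4a2: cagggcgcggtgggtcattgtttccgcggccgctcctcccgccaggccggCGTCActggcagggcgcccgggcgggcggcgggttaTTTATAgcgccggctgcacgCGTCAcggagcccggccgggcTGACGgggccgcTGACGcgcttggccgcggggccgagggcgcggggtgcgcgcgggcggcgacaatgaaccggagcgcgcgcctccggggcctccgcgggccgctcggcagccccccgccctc
Nr4a3: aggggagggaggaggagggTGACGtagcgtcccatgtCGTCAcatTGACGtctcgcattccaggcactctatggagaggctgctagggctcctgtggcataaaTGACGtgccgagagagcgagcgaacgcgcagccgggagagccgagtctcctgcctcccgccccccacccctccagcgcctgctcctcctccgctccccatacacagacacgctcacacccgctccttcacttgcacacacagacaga
Egr2: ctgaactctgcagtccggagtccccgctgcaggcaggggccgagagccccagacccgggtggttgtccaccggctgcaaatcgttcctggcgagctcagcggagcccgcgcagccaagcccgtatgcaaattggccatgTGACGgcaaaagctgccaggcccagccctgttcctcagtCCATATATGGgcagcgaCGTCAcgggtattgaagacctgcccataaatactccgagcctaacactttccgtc
Ier3: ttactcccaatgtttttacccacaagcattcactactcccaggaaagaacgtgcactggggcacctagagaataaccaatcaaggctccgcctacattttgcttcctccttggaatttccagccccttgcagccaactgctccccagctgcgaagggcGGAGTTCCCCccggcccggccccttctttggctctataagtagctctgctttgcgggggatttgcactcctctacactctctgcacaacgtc

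The half-site TGACG was found 4 times in each of the Nr4a1, Nr4a2 and Nr4a3 windows. At least 1 copy lay in 20.8% of all 32851 promoter windows of the same length, and at least 4 copies in 0.231%. Counting 4 copies was decided after these windows were seen. The full element TGACGTCA, which contains the half-site, was in 1.79% of all windows and in none of the 13 windows of the members. A CArG box lay in 4 of the 5 Egr2 windows, 3 of which overlap and share the same box, against 1.63% of all windows. In the printed window it reads CCATATATGG, with a half-site on each side. The Nr4a1 window held an EGR site, found in 3.47% of all windows, and a kappaB site across the start, found in 4.51%. Ier3 also held a kappaB site, which binds NF-kB, and Nr4a2 a TATA box on the opposite strand, found in 13.6% of all windows. Csrnp1 had 4 start sites with 1 or 2 half-sites each. The heat shock element of 3 units, bound by heat shock factor (0.603% of all windows), and the NR4A site AAAGGTCA (1.51%) matched none of the 13 windows. The element of 2 units (GAANNTTC or TTCNNGAA, in 15.1% of all windows) matched once, in an Egr2 window. A match describes these letters only, and no binding was measured.

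**Figure D1:**
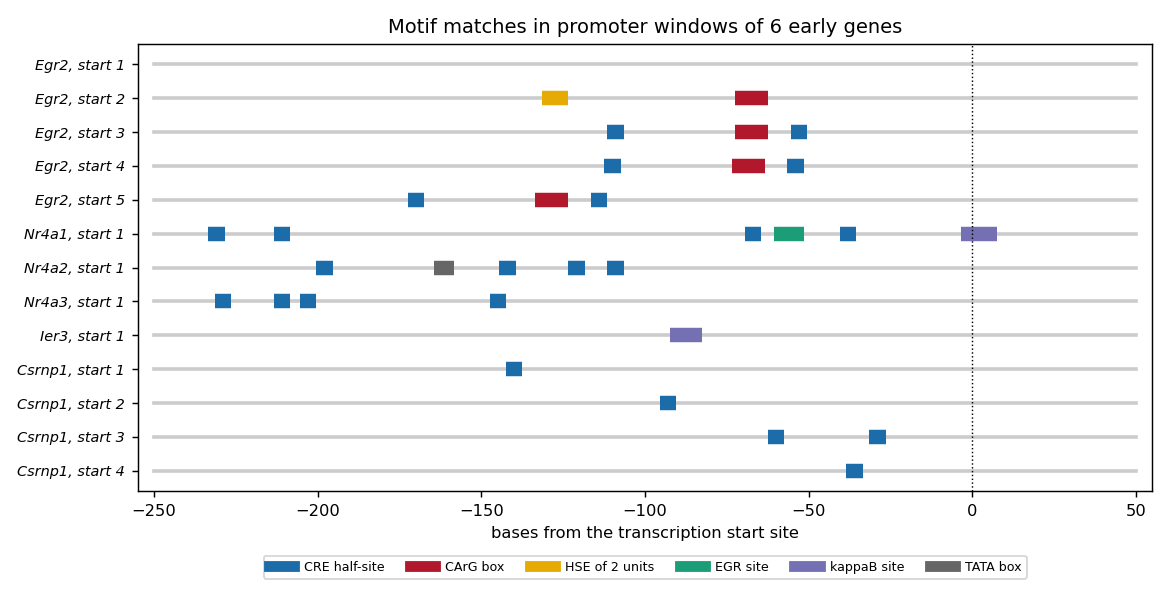
Motif matches in the 13 promoter windows of 6 members; the horizontal axis is the distance in bases from the transcription start site, each grey line is a window and each coloured block a match. The 3 NR4A windows each hold 4 half-sites, and 4 of the 5 Egr2 windows hold a CArG box.

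Signals are scaled intensities on a linear scale, 1 per probe set and array. As a noise level, each array has the highest value that any of 27 probe sets for Bacillus subtilis genes gave on it, which was at most 7.67. Levels of different genes cannot be compared, since each probe set has its own brightness. As checks of the treatments, Hspa1a, the heat-inducible Hsp70, read 5029 and 4940 in HS+LPS, against 56.8 and 68.1 in LPS and 61.0 and 54.8 in Control. Cxcl10, an LPS-induced chemokine, read 35.5 and 46.6 in HS+LPS, 591 and 428 in LPS and 11.2 and 7.85 in Control. All 9 fibroblast markers on a fixed list (such as Col1a1, Vim and Thy1) were over the noise level on every array. Of all 12917 genes 173 were called in HS+LPS over LPS, and 66 of these rose. Of the 9 fibroblast markers Pdgfrb fell in this comparison (log2 difference -0.81, limma adjusted p = 0.0277) and 8 did not pass. That call was lost without any 1 of the 6 arrays (adjusted p from 0.0669 to 0.193) and with no intensity trend (adjusted p = 0.0866), and with the block Pdgfra fell too. The 8 macrophage markers summed to 211 to 330 in HS+LPS, 212 to 384 in LPS and 223 to 405 in Control. Brighter probe sets weigh more in such a sum. Of the 8, 6 were over the noise level on both HS+LPS arrays, 6 on both LPS arrays and 5 on both Control arrays. In any comparison 0 of the 6 tested passed. The number of arrays limits the precision.

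**Figure D2:**
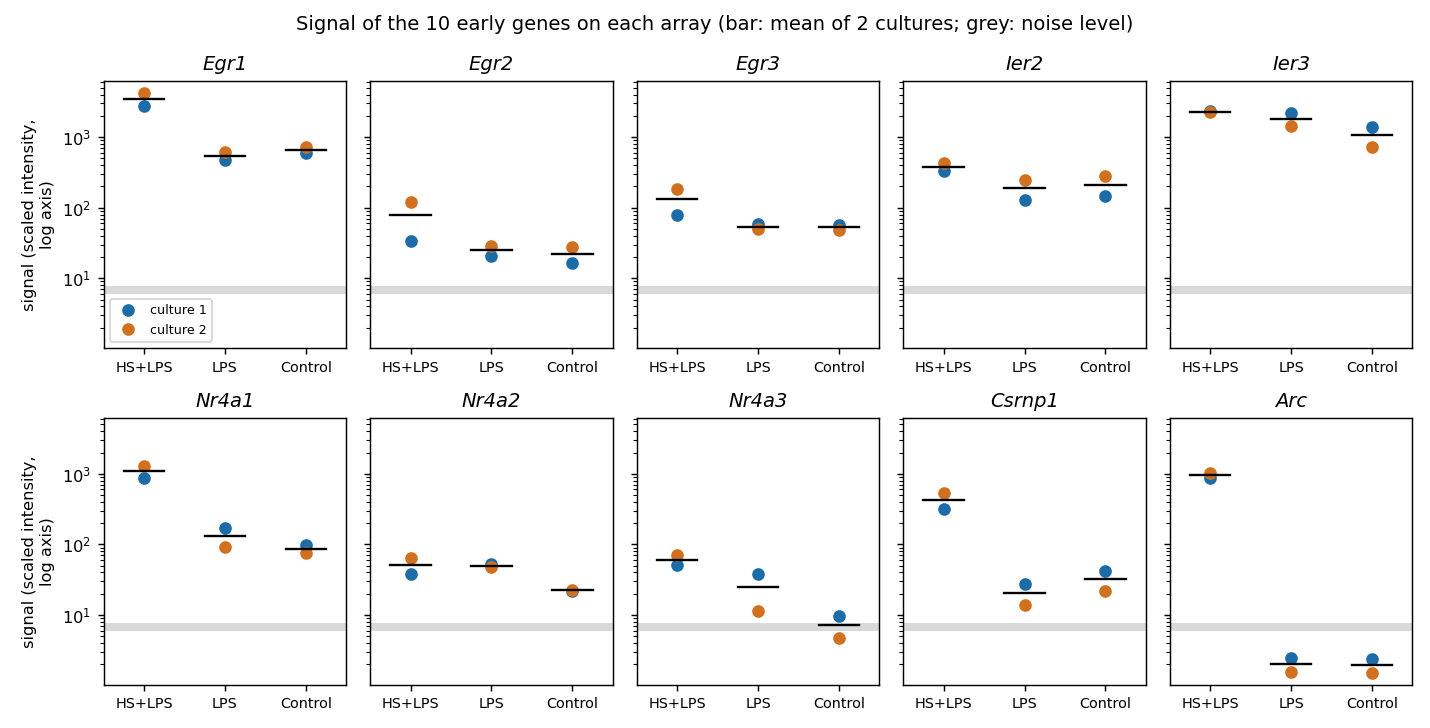
Signal of each member on each array, on a log axis in scaled intensity units, in HS+LPS, LPS and Control; points are the 2 cultures, black bars the group means, and the grey band the range of the noise level. Arc lies under the band in LPS and Control and at 884 and 1040 in HS+LPS, Egr1, Nr4a1 and Csrnp1 are high in HS+LPS, and the HS+LPS and LPS points of Nr4a2 overlap.

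HS+LPS against LPS shows what the preceding heat shock changed in LPS-treated cells. Of the 7 tested members, Egr1 rose, 0 fell and 6 did not pass (limma, Benjamini-Hochberg adjusted p under 0.05 over all genes), where 0.511% of all genes rose. With the culture as a block 4 of the 7 rose (Egr1, Egr2, Egr3 and Ier2), where 6.32% of all genes rose. In 6 of the 7 both HS+LPS arrays were above both LPS arrays, which was so for 17.9% of all genes. The median log2 difference of the 7 was 1.13, and that of all genes -0.05.

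Egr1, which couples growth factor and stress signals to gene expression, read 2725 and 4195 in HS+LPS (cultures 1 and 2), against 474 and 622 in LPS. Both heat-shocked arrays were far above both LPS arrays. The signal was 6.20-fold higher (log2 difference 2.63, SE 0.24, limma adjusted p = 0.0158). In plain ratios it was 5.75 times as high in culture 1 and 6.75 times in culture 2. The call was lost without LPS culture 1 (adjusted p = 0.106), LPS culture 2 (adjusted p = 0.0782) or HS+LPS culture 2 (adjusted p = 0.0828), at log2 differences of 2.32 to 2.83.

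Egr2, best known for its role in myelinating Schwann cells and hindbrain patterning, read 33.4 and 122 in HS+LPS, against 20.7 and 28.8 in LPS. The groups did not overlap, but most of the difference came from culture 2. It did not pass (log2 difference 1.28, SE 0.59, limma adjusted p = 0.347, and adjusted p = 0.0248 with the block). Its other probe set read 34.0 and 76.0, against 14.7 and 25.6, so both probe sets were higher in each heat-shocked culture.

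Egr3, a close relative that shares targets with Egr1, read 79.8 and 185 in HS+LPS, against 58.3 and 49.6 in LPS. Here too the heat-shocked arrays were both higher and culture 2 stood out. It did not pass (log2 difference 1.13, SE 0.39, adjusted p = 0.227, and adjusted p = 0.0359 with the block). A dimmer Egr3 probe set read 11.7 and 4.56, against 10.0 and 18.2, and thus went the other way in culture 2.

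Nr4a1, also called Nur77, read 876 and 1306 in HS+LPS, against 169 and 92.0 in LPS, and ranked 23 of 12917 genes by log2 difference (3.06, or 8.37-fold). Every heat-shocked array was at least 5 times as high as the LPS array of its culture, with plain ratios of 5.18 and 14.2. Its 2 relatives had smaller differences, which were not tested against that of Nr4a1. Nr4a2, or Nurr1, known for its part in dopamine neurons, read 37.5 and 64.7 in HS+LPS, against 51.9 and 48.2 in LPS, and the groups overlapped (log2 difference -0.02, 95% interval -0.71 to 0.67, adjusted p = 0.984). The difference was -0.44 in culture 1 and 0.40 in culture 2, and 3 further Nr4a2 probe sets over the filter gave 0.22 to 0.77 on the log2 scale, none past the threshold. Nr4a3, or Nor1, read 50.5 and 70.2 in HS+LPS, against 38.2 and 11.4 in LPS (log2 difference 1.35, SE 0.54, adjusted p = 0.291, and adjusted p = 0.0524 with the block). Its LPS arrays were far apart, so that the plain ratio was 1.32 in culture 1 and 6.17 in culture 2. Its 2 other probe sets were each under the noise level on all arrays but 1.

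Csrnp1, a nuclear protein first described as induced by axin, read 315 and 528 in HS+LPS, against 27.5 and 14.0 in LPS, a 17.8-fold difference (log2 4.15) that ranked 8 of 12917. Both cultures were higher, at plain ratios of 11.5 and 37.8. A second Csrnp1 probe set was under the noise level on all 6 arrays.

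Arc read 884 and 1040 in HS+LPS, against 2.49 and 1.58 in LPS, where it was under the noise level on both arrays. Set against the noise level it was at least 146-fold higher. The fitted log2 difference of 7.48 rests on the constant added before taking logs, and was 8.32 with 1 and 5.76 with 16. Its rank by that difference was 1 of 12917 genes, but 2, after Hspa1a, with the constant of 16. Arc is known mainly from neurons, and the 10 neuron markers on the fixed list had a summed signal of 1529 to 2275 in HS+LPS, against 1284 to 1899 in LPS. With limma 0 of the 9 neuron markers tested passed. With the block Map2 rose, at 532 and 324 in HS+LPS, against 335 and 179 in LPS (limma adjusted p = 0.0012 with the block). With the block 6.32% of all genes rose. Of the 10 neuron markers, 6 were over the noise level on both HS+LPS arrays and 8 on both LPS arrays. The synaptic gene Snap25 was under the noise level on all 6 arrays. Most of the sum was Stmn2, a microtubule regulator, which read 1577 and 1047 in HS+LPS, against 1395 and 948 in LPS. The part of other cells in the Arc signal was not tested.

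Ier2 and Ier3 are early response genes that are not related to each other in sequence. Ier2, a nuclear protein induced by growth factors, read 328 and 432 in HS+LPS, against 127 and 249.1 in LPS. The cultures differed within each group, so the difference passed only with the block (log2 difference 1.07, SE 0.42, adjusted p = 0.279, and adjusted p = 0.00155 with the block). Ier3, a regulator of cell survival, read 2308 and 2304 in HS+LPS, against 2217 and 1437 in LPS, and did not pass (log2 difference 0.37, SE 0.34, adjusted p = 0.653, and adjusted p = 0.178 with the block). Its HS+LPS arrays were nearly equal and only culture 2 showed a clear difference.

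**Figure D3:**
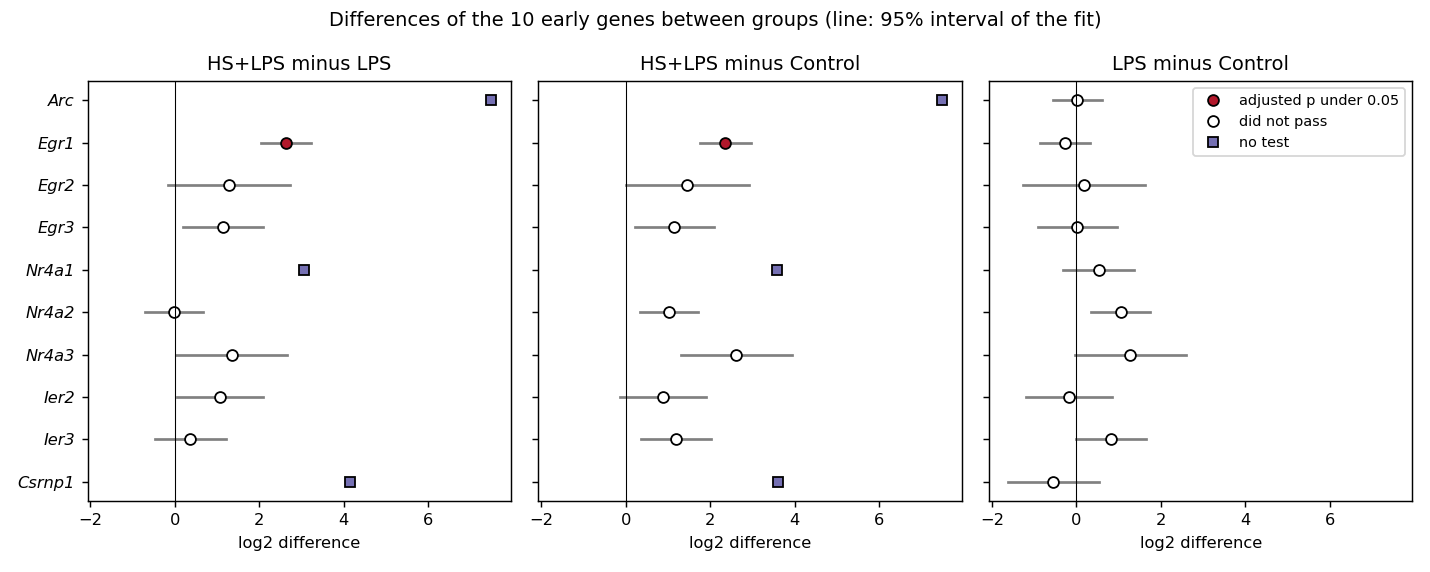
Log2 differences of the 10 members in the 3 comparisons, with lines for the 95% interval of the fit; squares are members described without a test. Egr1 is the member past the threshold in both comparisons with HS+LPS, and none is past it in LPS minus Control, where the Arc point rests on arrays under the noise level.

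LPS against Control shows what differed after 4 h of LPS without heat. No earlier time was measured, so a change that had passed by 4 h would not be seen. Arc was under the noise level on all 4 arrays and passed the filter through its HS+LPS signal alone, so it is left out of the counts here, a choice made after its values were seen. With limma, 0 of the other 9 members passed, 1 had an unadjusted p under 0.05 (Nr4a2), and 0.147% of all genes rose. With the block Ier3 alone was called, where 2.06% of all genes rose. Both LPS arrays were above both Control arrays in 3 of 9 members, against 13.1% of all genes. The median log2 difference of the 9 was 0.18, and that of all genes -0.05.

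The 3 members that did not overlap were Ier3, Nr4a2 and Nr4a3. Ier3 read 2217 and 1437 in LPS, against 1403 and 727 in Control, and was thus higher in each culture, at plain ratios of 1.58 and 1.98 (log2 difference 0.82, SE 0.34, adjusted p = 0.999, and adjusted p = 0.0477 with the block). Nr4a2 read 51.9 and 48.2 in LPS, against 22.2 and 22.8 in Control. This was a 2.07-fold difference that the replicates shared (log2 1.05, SE 0.28, unadjusted p = 0.0102, adjusted p = 0.626, and adjusted p = 0.0671 with the block). The other Nr4a2 probe sets over the filter did not all show it: one read 31.6 and 28.1, against 17.6 and 12.4, and another 24.5 and 32.2, against 25.7 and 33.3. Nr4a3 read 38.2 and 11.4 in LPS, against 9.53 and 4.76 in Control, with 1 Control array under the noise level (log2 difference 1.27, SE 0.54, adjusted p = 0.999, and adjusted p = 0.178 with the block).

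The EGR genes, Ier2, Csrnp1 and Nr4a1 showed overlapping groups. Egr1 read 474 and 622 in LPS, against 599 and 717 in Control (log2 difference -0.27, 95% interval -0.87 to 0.33). Egr2 and Egr3 had log2 differences of 0.18 and 0.02, with intervals of -1.27 to 1.63 and -0.92 to 0.97. Nr4a1 read 169 and 92.0, against 98.4 and 74.6 (log2 difference 0.53, interval -0.31 to 1.36), and Ier2 127 and 249.1, against 146 and 278 (log2 difference -0.18, interval -1.20 to 0.84). Csrnp1 read 27.5 and 14.0 in LPS, against 42.0 and 21.7 in Control, lower in both cultures (log2 difference -0.54, interval -1.61 to 0.52). Arc read 2.49 and 1.58 in LPS, against 2.40 and 1.52 in Control, and no fold is given.

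HS+LPS against Control shares its HS+LPS arrays with the first comparison and its Control arrays with the second, so it is no separate evidence. Of the 7 tested members Egr1 rose (0.17% of all genes rose) and 6 did not pass, while all 7 rose with the block (5.09% of all genes). Both HS+LPS arrays were above both Control arrays in 7 of 7, against 14.3% of all genes. Egr1 read 2725 and 4195 in HS+LPS, against 599 and 717 in Control (log2 difference 2.36, SE 0.24, limma adjusted p = 0.0401). This call was lost when any 1 of the 6 arrays was left out, with adjusted p from 0.0711 without HS+LPS culture 1 to 0.239 without HS+LPS culture 2.

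Nr4a3 was under the noise level on 1 Control array, so the size of its difference depends on the constant added before taking logs. It read 50.5 and 70.2 in HS+LPS, against 9.53 and 4.76 in Control (log2 difference 2.62, SE 0.54, adjusted p = 0.111, and adjusted p = 0.00429 with the block). The log2 difference was 1.72 with the constant of 16, where that of Egr1 was 2.34, and 0.90 for the mean of its probe sets. Nr4a2 read 37.5 and 64.7, against 22.2 and 22.8 (log2 difference 1.03, adjusted p = 0.165, and adjusted p = 0.0226 with the block), beside a log2 difference of 1.05 for LPS over Control. Ier3 read 2308 and 2304, against 1403 and 727 (log2 difference 1.19, adjusted p = 0.177, and adjusted p = 0.00323 with the block). Egr2, Egr3 and Ier2 had log2 differences of 1.46, 1.16 and 0.89, with limma adjusted p of 0.303, 0.229 and 0.375, and of 0.0163, 0.0354 and 0.00441 with the block. Described without a test, Arc was at least 138-fold higher, Csrnp1 12.2-fold and Nr4a1 12.1-fold, and Csrnp1 and Nr4a1 ranked 15 and 16 of 12917 genes. Arc ranked 1, or 2 after Hspa1a with 16 as the added constant.

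Set side by side, the members' differences at the steps fell into several orders. Egr1, Egr2, Egr3, Csrnp1 and Ier2 had log2 differences between -0.54 and 0.18 for LPS over Control and of 1.07 or more for HS+LPS over LPS. Nr4a2 had 1.05 for LPS over Control and -0.02 for HS+LPS over LPS, and Ier3 0.82 and 0.37. Not all Nr4a2 probe sets over the filter shared that order, and one had -0.05 for LPS over Control and 0.70 for HS+LPS over LPS. Nr4a1 and Nr4a3 had positive log2 differences at both steps, with 0.53 and 3.06 for Nr4a1 and 1.27 and 1.35 for Nr4a3. The Nr4a1 groups overlapped for LPS over Control, and Nr4a3 passed in neither fit at either step. Whether these patterns differ between members was not tested. Both steps share the LPS arrays, so a high LPS reading raises the first difference and lowers the second.

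The size of the heat-associated difference varied with the culture. Of the 9 members with higher signal in HS+LPS than in LPS in both cultures, 8 had the larger log2 difference in culture 2, as did 57.0% of the 4008 genes with higher signal in both. The exception was Ier2, at 1.35 in culture 1 and 0.78 in culture 2. The contrast was widest for Nr4a3 (0.37 in culture 1 and 2.32 in culture 2), Csrnp1 (3.37 and 4.94) and Nr4a1 (2.35 and 3.78), and narrow for Egr1 (2.52 and 2.75). The 9 include Arc, Nr4a1 and Csrnp1, already known for large increases, and Arc was under the noise level on both LPS arrays. All members were read on the same arrays, so they are not replicates of a culture effect. Each culture is 1 embryo, so no test of this was possible.

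**Figure D4:**
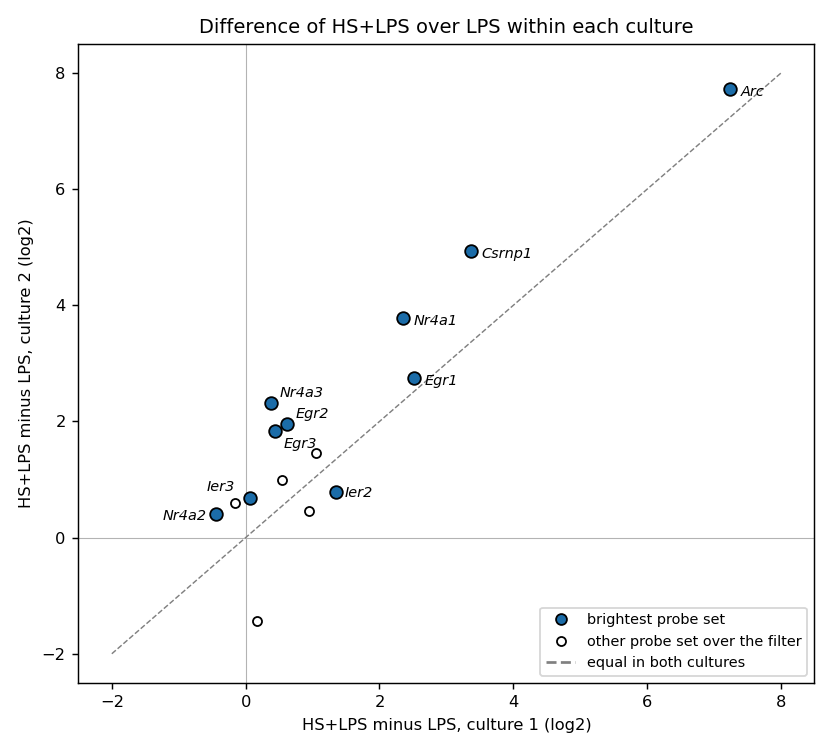
Log2 difference of HS+LPS over LPS in culture 1 (horizontal) against culture 2 (vertical), for the brightest probe set of each member (filled) and 5 other probe sets over the filter (open); the dashed line marks equal differences. Of the filled points, 9 lie above the line, and Ier2 lies under it.

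Signals of the members moved together across the 6 arrays to different degrees. Pearson correlations of log2 signal were 0.98 for Arc with both Nr4a1 and Egr1. They were 0.97 for Nr4a1 with Csrnp1 and 0.06 for Ier2 with Ier3. Arc, Nr4a1 and Csrnp1 were already known for large increases in HS+LPS, so a high r among them follows from that and is no finding. Of the genes outside the 10, the 3 most like Arc were P2rx7, an ATP-gated channel, the acetyltransferase subunit Naa30 and Hspa1a (r = 0.999 each). P2rx7 read 238 and 243 in HS+LPS, against 10.0 and 8.54 in LPS and 8.06 and 7.32 in Control. Naa30 read 235 and 238 in HS+LPS, against 159 and 160 in LPS and 163 and 160 in Control. Its difference was far smaller than that of Arc, since r leaves out the size of a change. Arc was under the noise level on all LPS and Control arrays, so its r reflects mainly the step to HS+LPS. Those most like Egr1 were the ubiquitin ligase subunit Fbxl14 (r = 0.998), the RNA-binding protein Igf2bp1 (r = 0.997) and Nab2, a corepressor that binds EGR proteins (r = 0.997). Nab2 read 553 and 604 in HS+LPS, against 385 and 421 in LPS and 416 and 419 in Control. Those most like Nr4a1 were Fbxo30 (r = 0.996), the phosphatase subunit Ppp1r15a (r = 0.994) and the ubiquitin protease Usp47 (r = 0.993), and those most like Ier3 were Foxs1 (r = 0.998), Purb (r = 0.994) and the growth factor Ereg (r = 0.992). These are descriptions over 6 arrays that share 3 treatments and 2 cultures.

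Other early genes gave the setting of the 10. Both this list and the next were chosen with earlier results of these data known. Their counts beside the shares of all genes are thus a description. The first list held 10 genes of the Fos, Jun, ATF and related families, which form AP-1 and like dimers. Of these, 3 rose in HS+LPS over LPS and 7 did not pass, where 0.511% of all genes rose. With the block 9 rose and Batf fell (log2 difference -1.37), and the median of the list was 1.33. Of all 12917 genes 2443 were called with the block, and 816 of these rose (6.32% of all genes). Atf3, a stress-induced repressor, read 2071 and 2093 in HS+LPS, against 22.3 and 34.7 in LPS (limma adjusted p = 0.000605). Fosb read 84.4 and 190 in HS+LPS, against 8.45 and 2.30 in LPS, 1 of these under the noise level (adjusted p = 0.0389). Fosb passed the filter on dim signals only through its HS+LPS arrays, so its call, counted among the 3, is a description and not a test. Junb read 611 and 773, against 234 and 204 (adjusted p = 0.0199). Fos itself read 408 and 951, against 81.9 and 163, and did not pass (log2 difference 2.40, adjusted p = 0.0918, and adjusted p = 2.59e-05 with the block).

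Of 31 further immediate early genes 3 rose in HS+LPS over LPS and 28 did not pass, where 0.511% of all genes rose. With the block 25 rose and 2 fell (median 0.99), where 6.32% of all genes rose. The 3 that rose without the block were Dusp5 and Dusp6, phosphatases that switch off ERK kinases, and Trib1, a pseudokinase. Dusp5 read 903 and 1100 in HS+LPS, against 131 and 70.4 in LPS (adjusted p = 0.0342), and Dusp6 838 and 1343, against 315 and 303 (adjusted p = 0.0352). Trib1 read 155 and 158, against 49.0 and 57.7 (adjusted p = 0.0481). The largest difference in the list was that of Dusp2 (log2 3.61, adjusted p = 0.0631, and adjusted p = 0.00136 with the block). Egr4, the fourth EGR gene, read 21.7 and 12.4, against 10.1 and 6.86, and passed in neither fit. The 2 that fell with the block were Klf2 and Ier5l, with log2 differences of -1.52 and -0.45.

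Leaving out an HS+LPS or LPS array ended the calls of Fosb, Junb, Dusp5, Dusp6 and Trib1 each time (adjusted p from 0.0591 for Dusp6 without HS+LPS culture 1 to 0.235), while Atf3 kept its call. Without a Control array those of Fosb, Dusp6 and Trib1 were lost as well (adjusted p from 0.0544 for Trib1 to 0.0671 for Dusp6). For LPS over Control 0 genes of both lists passed in either fit (medians 0.13 and 0.00). Of all genes 0.147% rose in that comparison, or 2.06% with the block. With no intensity trend the calls of Fosb (adjusted p = 0.0669), Dusp5 (adjusted p = 0.0703), Dusp6 (adjusted p = 0.0761) and Trib1 (adjusted p = 0.0748) were lost. Trib1 was also lost with a pseudocount of 1, no filter, median centring or the mean of probe sets (adjusted p from 0.0523 to 0.0931), and Fosb with a pseudocount of 1 or no filter (adjusted p = 0.0541 and 0.0524). For HS+LPS over Control, Junb and Atf3 rose in the AP-1 list (9 rose and 1 fell with the block). Of all genes 0.17% rose there. With the block 2219 of all genes were called, and 658 of these rose (5.09% of all genes). The call of Junb was lost without any 1 of the 6 arrays (adjusted p from 0.0513 to 0.141) and with no trend (adjusted p = 0.0614), which left Atf3. Of the 31 further immediate early genes 0 passed (22 rose and 2 fell with the block).

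**Figure D5:**
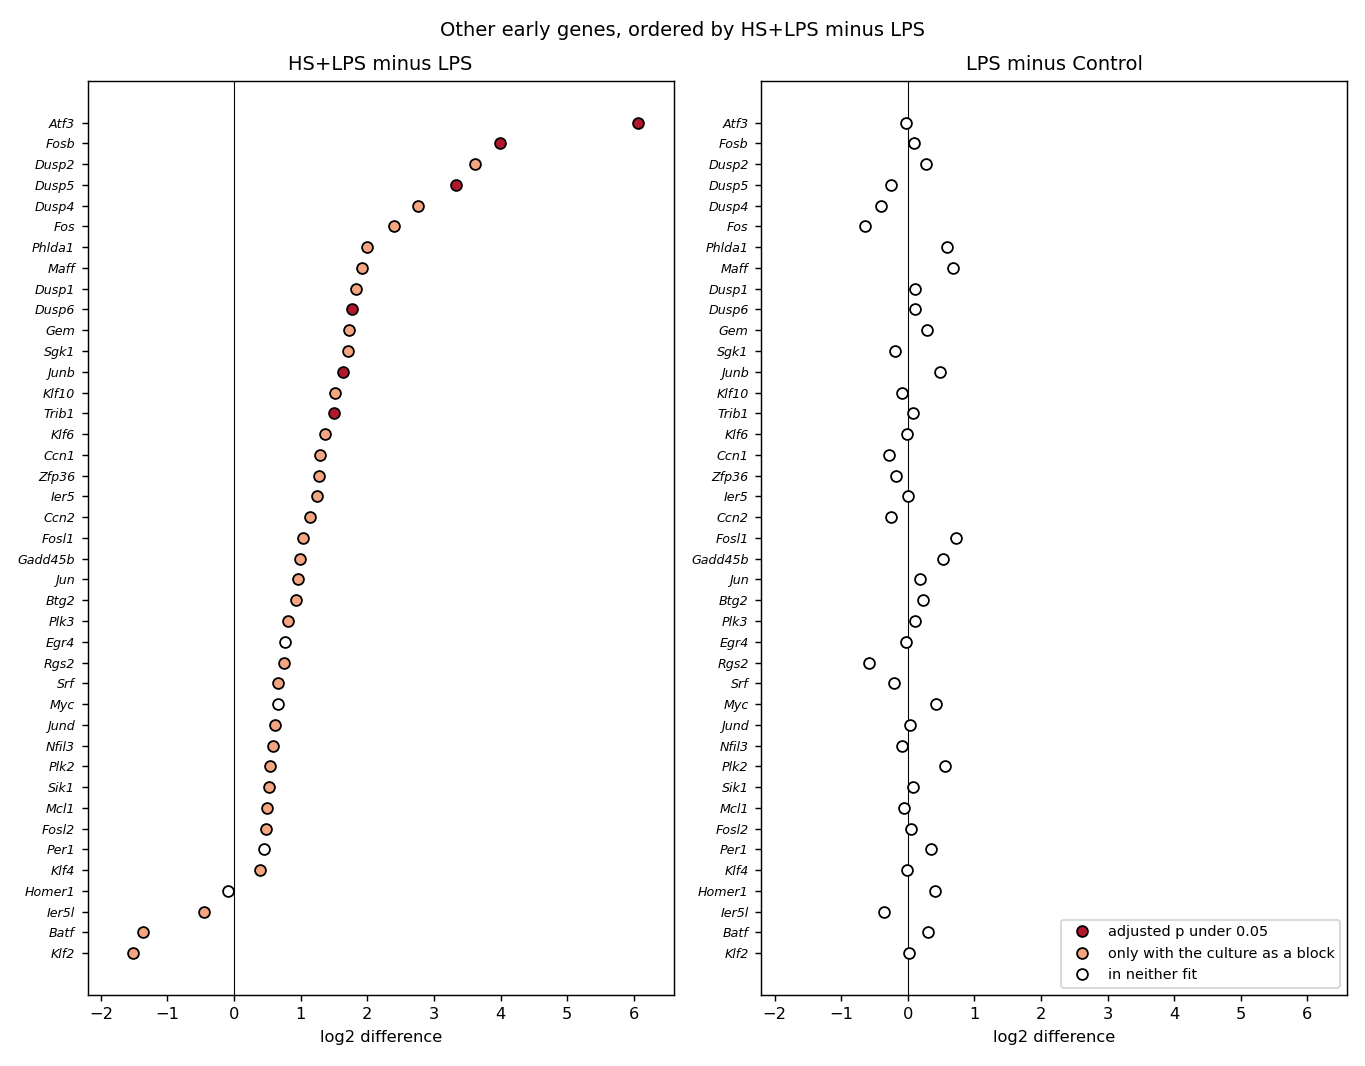
Log2 differences of 41 other early genes in HS+LPS minus LPS (left) and LPS minus Control (right), ordered by the left panel; dark points passed in the fit used throughout, light points with the culture as a block alone. The values on the left reach from Klf2 at -1.52 to Atf3 at 6.06, and those on the right lie between -0.64 and 0.73.

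Among partners and upstream factors no gene passed without the block. Of 6 tested partners and relatives (Nab1, Nab2, Wt1, Rxra, Rxrb and Csrnp2), 0 passed in HS+LPS over LPS with limma. With the block Nab2 rose (log2 difference 0.52, adjusted p = 0.00394 with the block), where 6.32% of all genes rose. Of 18 tested upstream transcription factors and kinases, such as Elk1, Creb1 and Mapk14, 0 passed with limma. With the block 1 rose and 4 fell, Elk4, Mrtfa, Mrtfb and Map2k1 (median of the list -0.27, of all genes -0.05). Of all 12917 genes 2443 were called with the block and 816 of these rose, so most calls were falls. The largest difference in the list was that of the kinase Rps6ka5, which phosphorylates CREB (-0.82, adjusted p = 0.247).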

How the data were processed

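The authors deposited linear intensities for 45101 probe sets on each of 6 arrays, and these are shown unchanged. Trimmed by 2% at either end, they averaged 100.001 on all arrays, a common scale that was set before deposit. The software that made them is not given in the sources used here, and array medians were 11.9 to 14.4. The 64 control probe sets were left out. Gene names came from the platform annotation (34958 probe sets with 1 symbol, 932 with several, 9211 with none), and the identifiers of 34754 were found in RefSeq.

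Intensities were turned into log2(intensity + 3.37), 3.37 being the 25th percentile of all values, so folds of dim genes are understated. A filter at the 40th percentile of the mean over arrays kept 27022 probe sets. The groups were compared in 1 fit with limma 3.58.1 in R 4.3.3 (intensity trend), tested on simulated data, with Benjamini-Hochberg adjustment over all 12917 genes. An "at least" fold is the mean log2 signal of the bright group over the noise level, with no constant added. The members and lists were chosen with earlier results of these data known. Named were all members, called genes of the lists or else the one with the largest difference, the genes most like 4 members, and 2 treatment checks; Fos, Dusp2, Egr4, Klf2, Ier5l, Batf, Elk4, Mrtfa, Mrtfb, Map2k1, Snap25 and Stmn2 were added after their values were seen.

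The replicate numbers pair the arrays, since the labels give the same name, MEF1 or MEF2, to arrays of 1 number. Deviations from group means correlated between arrays of the same culture at 0.62 (LPS and Control), 0.57 (HS+LPS and Control) and 0.54 (HS+LPS and LPS). The block with the culture lowered the median SE of a log2 difference to 0.15, against 0.23 without it. The fit without the block is used throughout because the protocols name none, and it thus leaves out the pairing that the labels give. A member that did not pass in it can pass with the block. Ier2 did so in HS+LPS over LPS (limma adjusted p = 0.279, and 0.00155 with the block). P-values rest on 2 cultures per group.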

Additional observations from a re-analysis of the deposited data

How the results depend on the processing

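With the culture as a replicate block, the calls among members were 4 of 7 (HS+LPS over LPS), 7 of 7 (HS+LPS over Control) and 1 of 10 (LPS over Control, or 1 of 9 with Arc not counted, added after seeing the data), and those among all genes 2443, 2219 and 359, against 173, 23 and 19 without it. Among members 0 were called for HS+LPS over Control after quantile normalization or with no intensity trend. Calls among all genes were 84, 13 and 5 with no trend, and for HS+LPS over Control 58 with a pseudocount of 16, 37 with the 60th percentile filter and 59 with median centring. Leaving out 1 array gave 0 to 1, 0 and 0 member calls and 8 to 76, 8 to 14 and 0 to 4 calls among all genes. In 1 group the lone array is then assumed to vary like the others. Of 929 further values of single genes and lists, 781 kept direction and side of the threshold or, for counts and untested values, moved within the limits set for them.

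Directions turned as follows. Nr4a2 for HS+LPS over LPS had log2 0.24 with a pseudocount of 1, under which another probe set was the brightest (-0.022 with the usual one kept, an alternative added after seeing the data), 0.10 after quantile normalization, 0.36 for the mean of probe sets, -0.39 to 0.35 with 1 array left out (0.03 without LPS replicate 1), and 0.88, 0.77, 0.22 and 0.70 for 4 other probe sets. Egr3's dimmer probe set gave -0.64 (HS+LPS over LPS), -0.79 (HS+LPS over Control) and -0.16 (LPS over Control), and dim Nr4a3 probe sets -0.14, -0.19 and -0.44. A dim Nr4a2 probe set gave -0.16 for HS+LPS over Control. For LPS over Control, Nr4a2 had -0.024 with a dim probe set and -0.052 with one over the noise level on every array, and Egr3 -0.066 for their mean. With 1 array left out, LPS over Control ranged from -0.10 to 0.14 for Arc, -0.15 to 0.51 for Egr2, -0.087 to 0.14 for Egr3 and -0.66 to 0.30 for Ier2. The cause was not tested.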
